A study of Homo sapiens with 6 samples.

Results

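The genes described here encode the proteins of the mitochondrial ribosome. They were chosen by symbol, as every row of the deposited count table named *MRPL* or *MRPS* followed by a number and, where present, a letter A, B or C. This gave 77 of the 20381 genes in the table, 49 of the large subunit (*MRPL*) and 28 of the small subunit (*MRPS*). The rule reads symbols and no measured value, but it was set with earlier results of these data known. All 77 passed the filter on low counts, and the lowest estimated count of a member in any library was 92.

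Libraries were made from HCCLM3, a human hepatocellular carcinoma cell line, to ask by RNA-seq how *PON1* overexpression alters its transcriptome. The PON1-OE group carried a lentivirus with *PON1*, which encodes the HDL-associated enzyme paraoxonase 1, and the NC group carried the empty vector, with 3 libraries in each. The paper describes puromycin-selected stable lines in medium with 10% serum, whereas the text in the repository gives 15% serum and lysis 24 h after transfection. Neither states whether the 3 libraries of a group came from separate infections or cultures, so n counts libraries and p-values measure the spread between them.

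The mitochondrial ribosome translates the few mRNAs of mitochondrial DNA, which encode core subunits of the respiratory chain and ATP synthase. Its rRNAs are transcribed inside the organelle, while all of its proteins are encoded in the nucleus, made in the cytosol and imported. Many of these proteins have bacterial counterparts, and the others arose with the organelle and mostly coat the outside of the particle. The nuclear genes for mitochondrial proteins are known targets of the transcription factors NRF1, GABP (an ETS family complex) and YY1.

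*PON1* had estimated counts of 0, 2 and 3 in the NC libraries and 155, 181 and 167 in the PON1-OE libraries. The library totals were 15706672 to 17948383 estimated counts. Of the hepatocyte markers examined, *HNF4A* was well expressed at 78.6 CPM (counts scaled to library size, with TMM factors) in NC, whereas *ALB* was at 0.578 CPM and *APOA1* at 0.0921 CPM. Of 5 immune cell markers, *PTPRC*, *LYZ* and *CD3E* had no count in any library and *CD79A* had 8 to 17 counts per library. The fifth, *CD68*, a lysosomal protein typical of macrophages, had 206 to 248 CPM with overlapping groups. Its log2FC, the log2 fold change of PON1-OE against NC, was 0.13 (unadjusted p = 0.00943, adjusted p = 0.252 in edgeR). The part of *CD68* in the results was not tested. Of the 8 hepatocyte markers, 5 were tested, with 4 lower and 1 higher in PON1-OE and a median log2FC of −0.34. At an unadjusted p under 0.05, 1 of these 5 (20%) was lower, against 11.1% of all genes tested. Their lowest adjusted p was 0.443 in edgeR. Of 4 endothelial and 6 fibroblast or stellate cell markers, 2 and 1 were tested. They were higher in PON1-OE, with adjusted p of 0.452 and above in edgeR. For 1 of the 2 endothelial markers (50%) the groups did not overlap, against 16.1% of all genes tested.

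The promoters are shown before the expression values, since the members' windows held 2 of the motifs searched more often than the windows of other genes. RefSeq windows of 250 bases before to 50 bases after the transcription start (GRCh38.p14, the window listed at the top where a gene has several) were found by symbol for 69 of the 77 members. Both strands were searched for the ETS core CCGGAAG, to which GABP binds, the YY1 core AAGATGGC, the NRF1 core and the E-box CACGTG, the site of MYC and related factors. No motif contains another. A match is a description of letters and not a measured binding site. The ETS core was present in 29 of 69 members (42.0%), against 10.7% of 27305 promoters of all genes and 20.3% of 9736 promoters of genes tested here. The YY1 core was present in 20 members (29%), against 3.03% of all promoters and 5.68% of those of genes tested. In contrast, the NRF1 core was found in 1 member (1.45%, against 1.36% of all promoters and 2.41% of those of genes tested) and the E-box in 6 (8.70%, against 7.43% and 10.3%). The NRF1 core was searched as 1 exact string of 10 letters, longer than the ETS core (7) and the YY1 core (8). A low count of so long a string does not show that NRF1 sites are lacking. ETS or YY1 cores were held by 41 of 69 members, both by 8, and 25 held none of the 4 motifs. The subunits were alike in these shares, with the ETS core in 40.5% of 42 large and 44.4% of 27 small subunit promoters and the YY1 core in 28.6% and 29.6%.

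**Figure D1:**
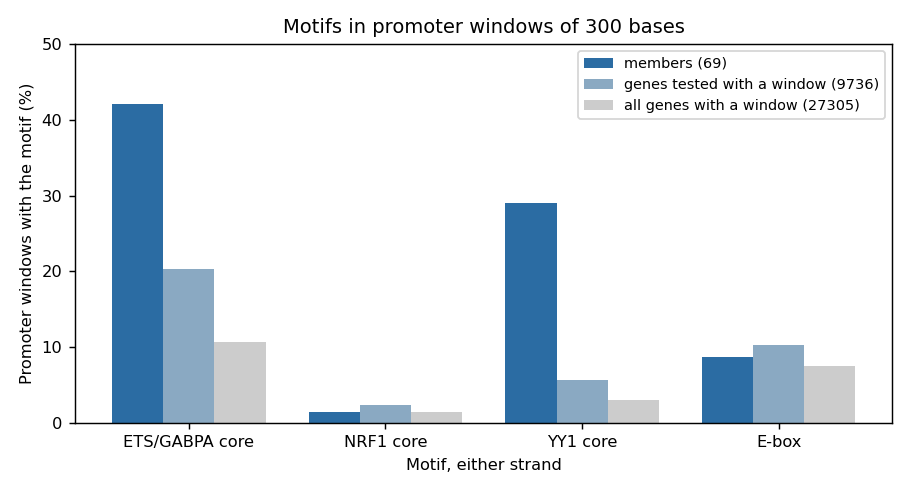
Percent of promoter windows holding each motif on either strand (y axis, from 0) for 69 mitochondrial ribosomal protein genes, 9736 genes tested and 27305 genes with a window. The ETS core (42.0%) and the YY1 core (29%) stood above both backgrounds in the members, while the NRF1 core and the E-box stood near or below them.

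The positions of the matches were counted in the members only, so no share of other promoters stands beside them. Of 39 ETS matches in the members, 27 began within 50 bases of the start and 18 were on the strand of the gene. To show this layout, the bases before the start that lie in no annotated exon are given 5′ to 3′ on the strand of the gene, with the ETS core in capitals, for *MRPL3* (chr3:131502984-131503221, minus strand), *MRPL20* (chr1:1407314-1407543, minus strand), *MRPS18A* (chr6:43687792-43688041, minus strand), *MRPS10* (chr6:42217866-42218111, minus strand) and *MRPS31* (chr13:40771191-40771440, minus strand). *MRPL3* is included as the member with the smallest p below, and the others as genes of both names with a core at a like place. *MRPL4* (chr19:10251701-10251900, plus strand) is shown for contrast, since its window held none of the 4 motifs. The stretch of *MRPL4* ends 51 bases before the start, so it leaves out the bases at which the cores of the other genes lie.
MRPL3: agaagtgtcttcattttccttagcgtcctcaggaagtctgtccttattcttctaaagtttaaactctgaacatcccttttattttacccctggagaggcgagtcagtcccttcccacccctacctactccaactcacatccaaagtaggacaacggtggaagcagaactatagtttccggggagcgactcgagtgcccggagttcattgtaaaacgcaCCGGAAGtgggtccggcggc
MRPL20: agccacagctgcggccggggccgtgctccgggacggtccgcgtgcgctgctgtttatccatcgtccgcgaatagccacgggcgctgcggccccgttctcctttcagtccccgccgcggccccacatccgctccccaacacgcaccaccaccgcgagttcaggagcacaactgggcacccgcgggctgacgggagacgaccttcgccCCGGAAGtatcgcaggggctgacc
MRPS18A: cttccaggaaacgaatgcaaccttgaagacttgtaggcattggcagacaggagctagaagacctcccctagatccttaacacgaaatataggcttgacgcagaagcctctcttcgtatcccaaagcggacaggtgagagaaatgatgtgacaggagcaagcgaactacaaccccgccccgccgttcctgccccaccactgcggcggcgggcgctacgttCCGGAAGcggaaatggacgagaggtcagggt
MRPS10: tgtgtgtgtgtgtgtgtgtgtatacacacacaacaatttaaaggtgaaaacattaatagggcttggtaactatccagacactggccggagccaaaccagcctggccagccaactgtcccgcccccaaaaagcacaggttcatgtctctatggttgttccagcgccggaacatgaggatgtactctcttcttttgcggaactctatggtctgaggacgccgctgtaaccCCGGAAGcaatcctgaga
MRPS31: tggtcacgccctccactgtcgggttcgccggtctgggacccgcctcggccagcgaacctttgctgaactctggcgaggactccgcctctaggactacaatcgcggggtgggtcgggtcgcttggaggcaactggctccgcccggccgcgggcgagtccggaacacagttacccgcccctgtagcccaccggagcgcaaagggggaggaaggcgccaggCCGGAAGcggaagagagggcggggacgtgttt
MRPL4: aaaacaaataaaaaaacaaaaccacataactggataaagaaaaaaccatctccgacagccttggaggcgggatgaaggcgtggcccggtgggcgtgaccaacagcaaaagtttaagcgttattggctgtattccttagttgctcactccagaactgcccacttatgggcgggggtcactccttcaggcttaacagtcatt
The core shown began 32 bases before the start in *MRPL3* and *MRPS31*, 31 in *MRPS18A*, 44 in *MRPL20* and 22 in *MRPS10*. *MRPL20* held another ETS core that began 21 bases before the start and is not marked. The cores shown were all on the strand of the gene, whereas only 18 of all 39 matches in the members were.

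The YY1 core lay mostly on the other side of the start in the members, and its position in other promoters was not counted. Of 21 matches in the members, 15 began after the start, between base 7 and base 36 of the transcript, and all 15 were on the strand of the gene. In 12 of these 15 the ATG inside the core was an annotated start codon of that gene in GENCODE v29. They belonged to 8 large and 7 small subunit genes by symbol. Stretches of 30 bases around the core, in capitals, are given for *MRPL45* (chr17:38297170-38297199, plus strand), *MRPL20* (chr1:1407260-1407289, minus strand), *MRPS10* (chr6:42217834-42217863, minus strand) and *MRPS18A* (chr6:43687764-43687793, minus strand). *MRPL45* is a member with an unadjusted p under 0.05 below, and the other 3 are genes shown above.
MRPL45: tttgcgggaacAAGATGGCagcccccatac
MRPL20: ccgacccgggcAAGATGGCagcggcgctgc
MRPS10: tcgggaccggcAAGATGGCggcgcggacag
MRPS18A: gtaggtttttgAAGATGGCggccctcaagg
In *MRPL45*, *MRPS10* and *MRPS18A* this ATG was an annotated start codon, and in *MRPL20* it was not.

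Many members also had a 5′ end close to that of a neighbour, taken as the outermost annotated end of the gene in GENCODE v29. For 29 of 77 members (37.7%) the 5′ end of a gene on the opposite strand lay within 1000 bases of the member's own, on either side, against 18% of 11897 annotated genes tested. The neighbour's 5′ end lay upstream for 16 of them and on the downstream side, so that the genes overlapped, for 13. The 29 were 21 large and 8 small subunit genes, and the median distance between the 5′ ends was 93 bases (2 to 965). Several neighbours encode mitochondrial proteins. *MRPL43* was paired with *TWNK*, the mitochondrial DNA helicase, *MRPL36* with *NDUFS6* and *MRPL47* with *NDUFB5*, both subunits of complex I, and *MRPS12* with *SARS2*, the mitochondrial seryl-tRNA synthetase. *MRPS11* and *MRPL46*, 1 gene of each subunit, had such ends 34 bases apart. Their changes in PON1-OE were small, with log2FC values of 0.036 for *MRPS11* and −0.050 for *MRPL46*. Of 27 distinct pairs with both genes tested, 12 had the same sign of log2FC. Windows of paired genes can overlap, so the motif counts are not independent between such genes. The RefSeq starts used for the windows can lie elsewhere. The window of *MRPL36* ran from 1799788 to 1800087 on chromosome 5, while its GENCODE end was 1801366 and that of *NDUFS6* 1801400. *MRPL11* and *MRPS22* also had windows away from the ends paired here. The pairs were not counted again with RefSeq starts.

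Levels of different genes are compared per length, as estimated counts divided by the median length of the protein-coding transcripts and scaled to the same sum in every library, as for TPM. On this scale 69 of the 77 members lay above the median of the genes tested, which was 19.2. The medians were 57.7 for the large and 55.5 for the small subunit genes. *MRPL49*, a large subunit protein found in mitochondria but not in bacteria, was highest, with 421 ± 11.4 (NC) and 421 ± 21.4 (PON1-OE), each as mean and SD of 3 libraries. *MRPL51* (337 ± 4.43 and 325 ± 7.64) and *MRPL24* (318 ± 4.48 and 327 ± 6.95) followed. The order of these neighbours differed between the groups. Next came *MRPS23*, the highest small subunit member, at 268 ± 7.30 and 265 ± 6.57. *MRPL12*, whose copies form the flexible stalk that recruits translation factors, was at 224 ± 1.57 (NC) and 216 ± 10.3 (PON1-OE). *MRPL49* overlaps *FAU* and *SYVN1* on the opposite strand, *MRPL51* overlaps *NCAPD2*, and *MRPL12* shares exons with *AC139530.2*, so that some of these counts may belong to the neighbours.

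At the other end, *MRPL57* (7.66 ± 0.934 and 7.46 ± 0.732), *MRPS31* (7.27 ± 0.789 and 7.88 ± 0.952) and *MRPL39* (8.01 ± 0.396 and 8.21 ± 1.81) lay within their spread of each other. *MRPL22*, which lines the exit tunnel for the nascent chain, followed with 9.44 ± 0.804 and 9.62 ± 0.280. *MRPS14* had 11.4 ± 0.367 and 10.6 ± 0.533. The highest member was thus 55.7-fold above the lowest. *MRPL57*, *MRPS31* and *MRPL22* have 5, 4 and 1 annotated pseudogenes that were not counted as genes here. *MRPS14* overlaps *CACYBP* on the opposite strand. Some reads of these low members may therefore be missing or belong to a neighbour. The order depended on the length used. With the union of all exons, 3 of the 5 highest and 2 of the 5 lowest members were shared, *MRPL12* was at 675 in place of 220 as the mean of all libraries, and *MRPS23* at 74.3 in place of 266.

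**Figure D2:**
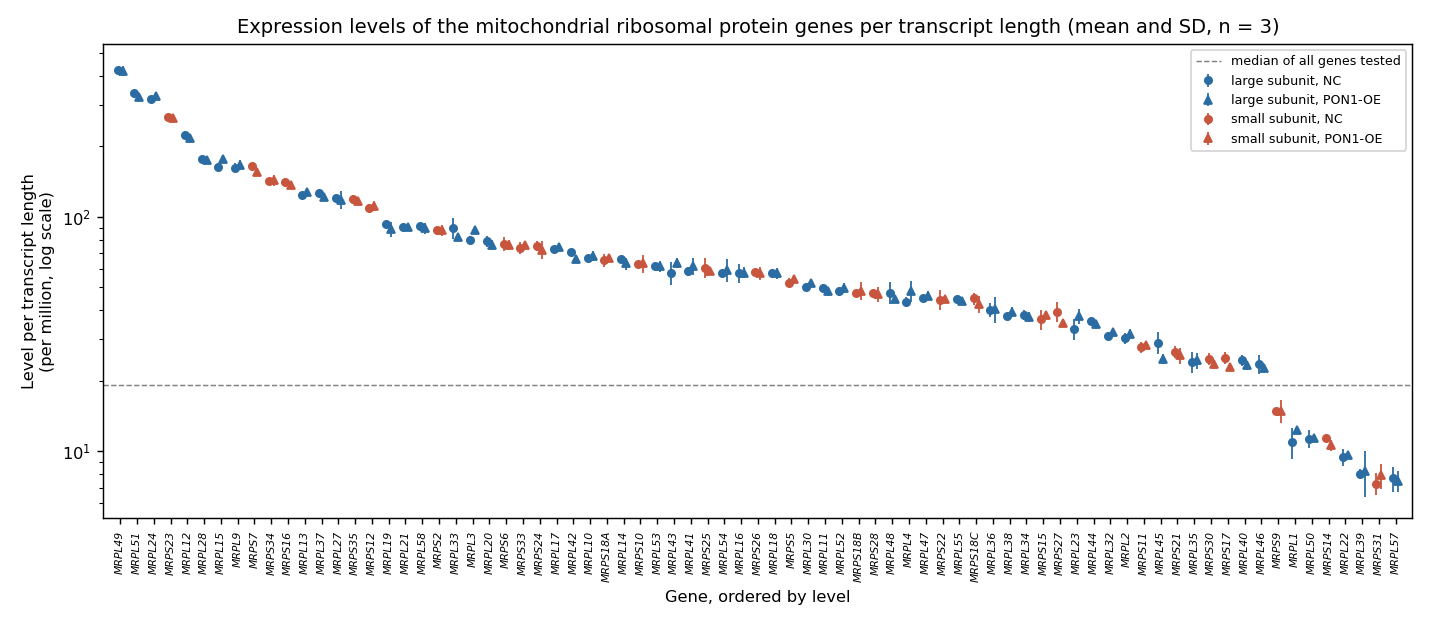
Level per transcript length (y axis, scaled as for TPM, log scale) of each of the 77 genes, ordered by level, as mean and SD of 3 NC (circles) and 3 PON1-OE libraries (triangles). The levels ran from 7.56 for *MRPL57* to 421 for *MRPL49*, with 69 genes above the dashed median of all genes tested (19.2), and genes of both subunits were spread over the whole range.

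The comparison of PON1-OE with NC asked whether *PON1* overexpression altered these genes, and it showed small differences only. With edgeR's quasi-likelihood test and p-values adjusted by Benjamini-Hochberg over 11958 genes, 0 of the 77 members had an adjusted p under 0.05, against 0.677% of all genes tested. DESeq2 and limma-voom also gave 0. The lowest adjusted p was 0.203, for *MRPL3*. With a change of more than 1.5-fold asked for in addition, 0 of 77 members passed, against 0.0502% of all genes. At an unadjusted p under 0.05, 4 members differed (5.19%), against 11.1% of the genes tested. Of these 4, 3 were higher in PON1-OE, against a background of 5.91%, and 1 was lower, against 5.17%. DESeq2 gave 3 members and limma-voom 4 at this level.

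The members' log2FC values lay between −0.22 and 0.19. Their median was 0.012, with 43 values above and 34 below 0, beside a median of −0.0025 over all genes tested. The 95% interval of the log2FC stayed within 1.5-fold in either direction for all 77 members, and within ±0.3 for 69 of them. The median half-width of this interval was 0.14. A change of 1.5-fold was thus outside the interval of every member.

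**Figure D3:**
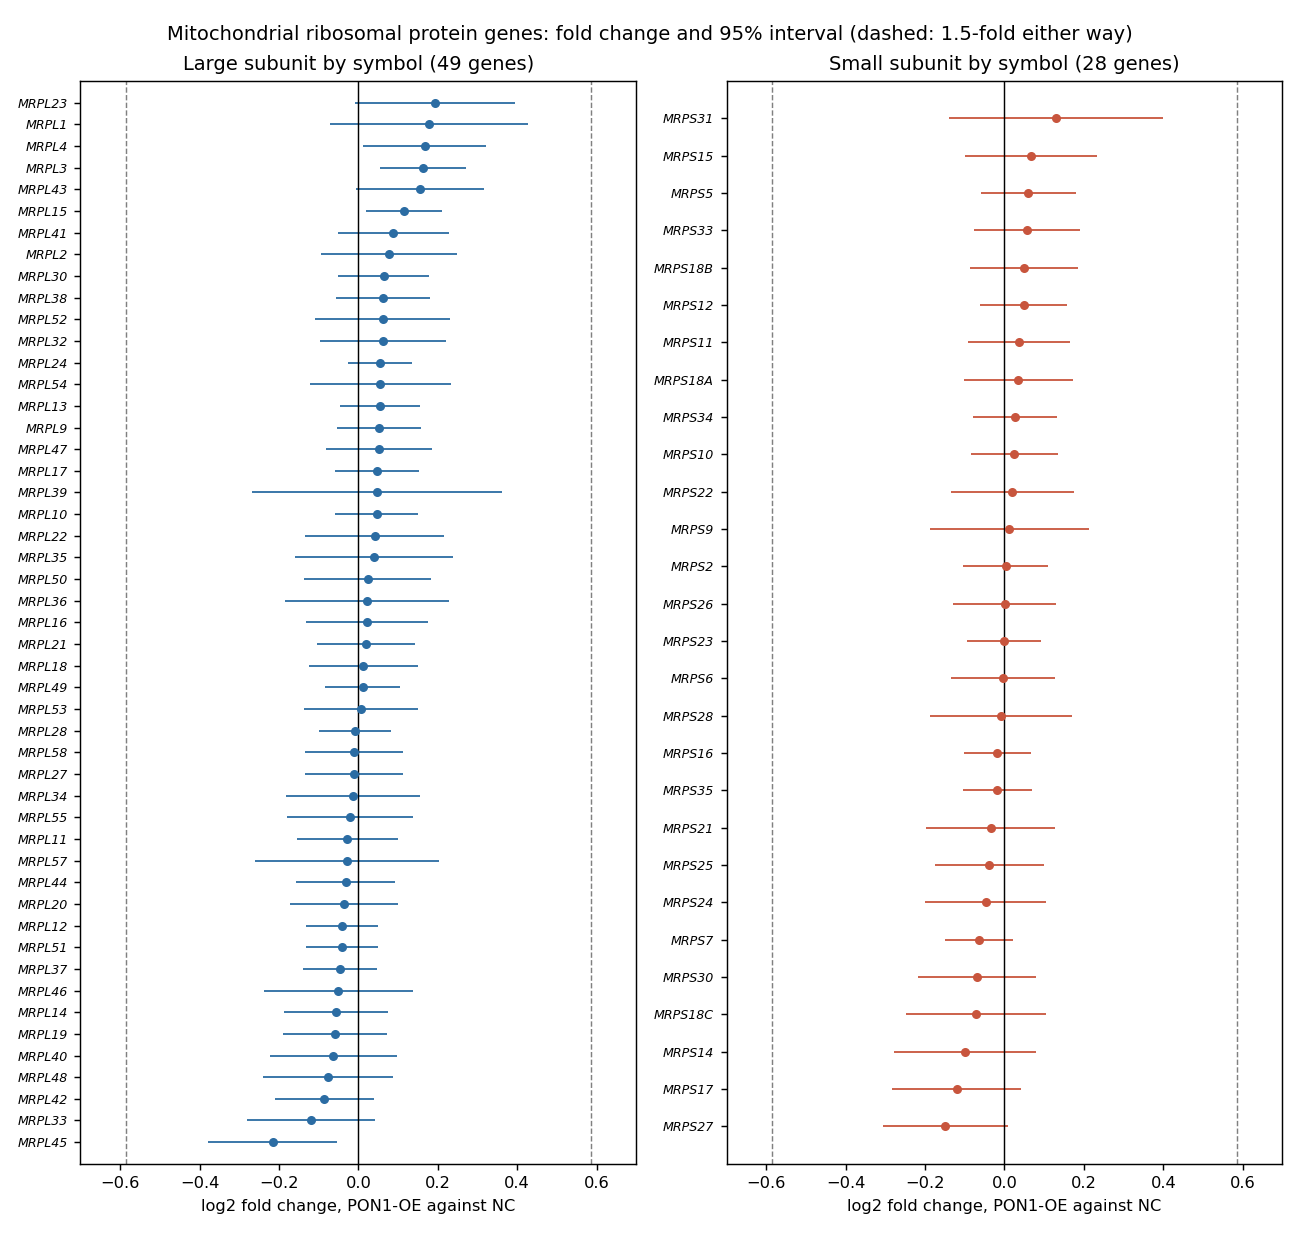
The log2 fold change of PON1-OE against NC (x axis) with its 95% interval from edgeR for 49 large (left, blue) and 28 small subunit genes (right, red), ordered by value, with dashed lines at 1.5-fold. All intervals lie inside the dashed lines, and those of *MRPL4*, *MRPL3*, *MRPL15* and *MRPL45* leave out 0.

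*MRPL3* (ENSG00000114686, minus strand of chromosome 3 from 131462212 to 131502983) encodes the counterpart of a bacterial protein that reaches toward the peptidyl transferase center. It had 70.6, 70.4 and 66.0 CPM (NC) against 76.4, 77.05 and 78.4 CPM (PON1-OE). The lowest PON1-OE library thus lay above the highest NC library. The log2FC was 0.16 (standard error 0.052, unadjusted p = 0.00481 from edgeR's quasi-likelihood test). It was between 0.13 and 0.18 in all 17 alternatives, with an unadjusted p of 0.00401 to 0.0360.

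*MRPL15* (ENSG00000137547, plus strand of chromosome 8 from 54135210 to 54147901), also with a bacterial counterpart, had 109, 110 and 109 CPM (NC) against 112, 122 and 121 CPM (PON1-OE). The highest NC library lay below the lowest PON1-OE library. The log2FC was 0.12 (standard error 0.046, unadjusted p = 0.0199, adjusted p = 0.343 in edgeR). Among NC libraries, leaving out replicate 1 (0.0540) or replicate 3 (0.0502) raised this p above 0.05. Among PON1-OE libraries, replicate 2 (0.0595) and replicate 3 (0.0703) did so.

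*MRPL4* (ENSG00000105364, plus strand of chromosome 19 from 10251901 to 10260045) encodes a protein of the exit tunnel wall. It had 39.5, 43.4 and 41.2 CPM (NC) against 46.0, 51.9 and 41.6 CPM (PON1-OE). PON1-OE replicate 2 was highest, and PON1-OE replicate 3 lay among the NC libraries, so the groups overlapped. The log2FC was 0.17 (standard error 0.074, unadjusted p = 0.0352, adjusted p = 0.406 in edgeR), and it was 0.082 without PON1-OE replicate 2 (unadjusted p = 0.260 in edgeR). The p was also above 0.05 without NC replicate 1 (0.126) or NC replicate 3 (0.0754), and in DESeq2 (0.0598). Transcripts on the opposite strand that are not in the table overlap this gene.

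*MRPL45* (ENSG00000278845, plus strand of chromosome 17 from 38297023 to 38323218) encodes the protein that ties the ribosome to the inner membrane at the tunnel exit. It had 41.7, 34.7 and 34.8 CPM (NC) against 32.1, 30.5 and 33.0 CPM (PON1-OE). NC replicate 1 stood well above the other two, and all NC libraries lay above all PON1-OE libraries. The log2FC was −0.22 (standard error 0.078, unadjusted p = 0.0116, adjusted p = 0.275 in edgeR), the lowest of the 77. Without NC replicate 1 it was −0.12 (unadjusted p = 0.136 in edgeR). The genome holds 2 annotated pseudogenes of this gene, which were not in the table, and how reads that fit both were counted is not given in the sources used here.

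In 4 of 77 members (5.19%) NC and PON1-OE did not overlap, against 16.1% of the genes tested. These were *MRPL3*, *MRPL15*, *MRPL45* and *MRPL17*, which had 69.0, 68.5 and 68.7 CPM (NC) against 69.5, 72.4 and 71.3 CPM (PON1-OE). *MRPL17* differed by a log2FC of 0.047 (unadjusted p = 0.362 in edgeR). It is named here after its values were seen.

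**Figure D4:**
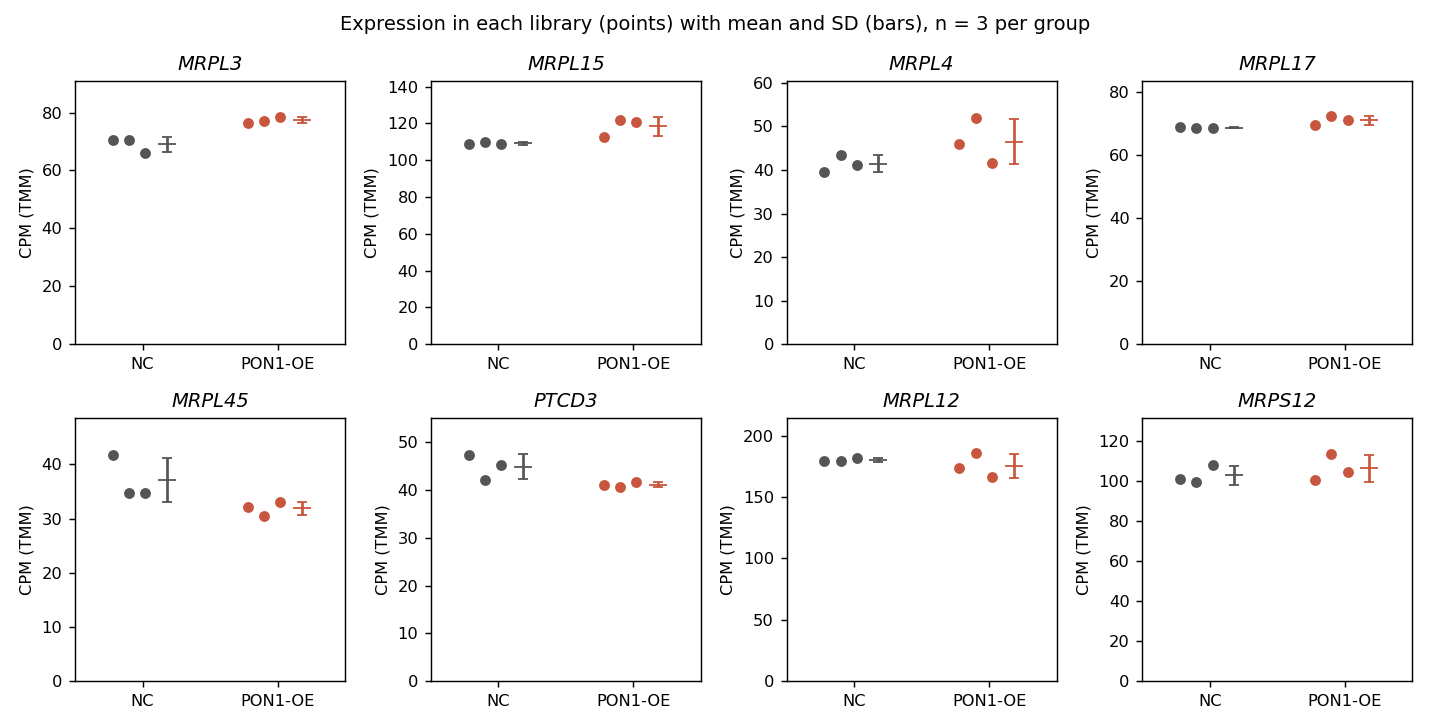
CPM after TMM scaling (y axis, from 0) in each of 3 NC and 3 PON1-OE libraries (points) with mean and SD (bars) for *MRPL3*, *MRPL15*, *MRPL4*, *MRPL17*, *MRPL45*, the small subunit gene *PTCD3*, *MRPL12* and *MRPS12*. The points of *MRPL3* in PON1-OE (76.4 to 78.4 CPM) lie above all NC points, those of *MRPL45* in PON1-OE (30.5 to 33.0 CPM) lie below all NC points, and those of *MRPL4*, *MRPL12* and *MRPS12* overlap.

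By subunit, all 4 members with an unadjusted p under 0.05 encode large subunit proteins, 4 of 49 (8.16%), and 0 of 28 small subunit genes passed in edgeR. Both shares lay below the 11.1% of all genes tested. The difference between these shares was not tested. The median log2FC was 0.022 over the large subunit genes (29 higher, 20 lower) and −0.00080 over the small subunit genes (14 higher, 14 lower). Summed over all members of a subunit, the large subunit took 0.279% ± 0.00165 of the estimated counts (NC) against 0.281% ± 0.00660 (PON1-OE, SD of 3 libraries each). The small subunit took 0.183% ± 0.00271 and 0.181% ± 0.00308. The ratio of the large to the small sum was 1.51, 1.55 and 1.51 (NC) against 1.55, 1.56 and 1.53 (PON1-OE). The groups overlapped, and the log2 ratio differed by 0.023, beside an SD between libraries of 0.018. The sums are dominated by the genes with many counts.

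**Figure D5:**
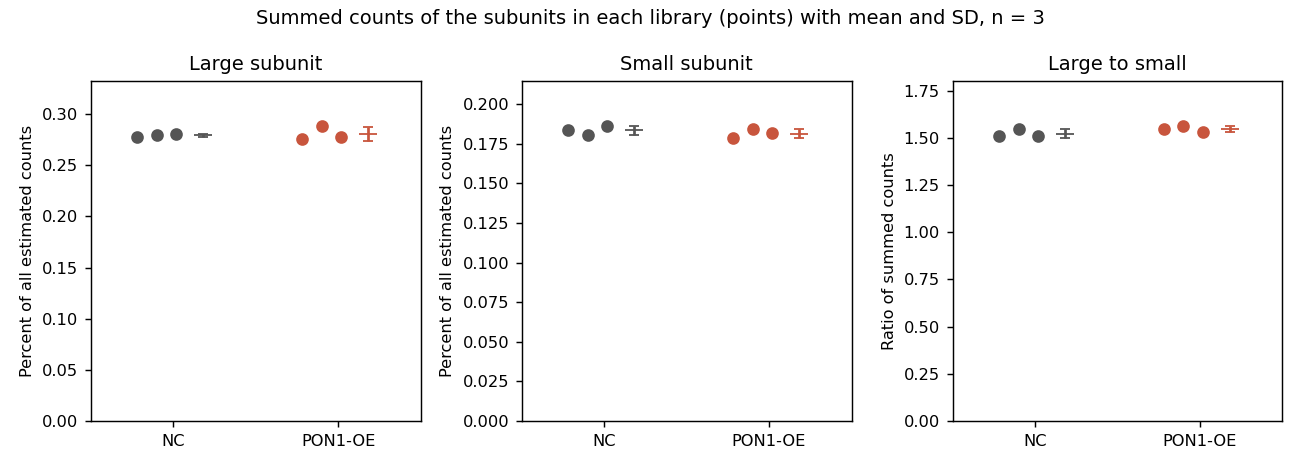
Share of all estimated counts taken by the large and the small subunit genes (left and middle, percent, from 0) and the ratio of the sums (right) in each library (points), with mean and SD of 3 libraries per group. The shares were close to 0.28% and 0.18% in both groups, and the ratios of NC (1.51 to 1.55) and PON1-OE (1.53 to 1.56) overlap.

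For a split by ancestry, subunits were taken from the structure, with *MRPS30* and *MRPS18A* in the large one. The 30 large subunit genes with a bacterial counterpart had a median log2FC of 0.040, with 20 higher and 10 lower, and *MRPL3*, *MRPL4* and *MRPL15* belonged to them. The 21 mitochondria-specific large subunit genes, which include *MRPL45*, had a median of −0.010. For the small subunit the medians were −0.0056 over 16 genes with a bacterial counterpart and 0.010 over 10 mitochondria-specific genes. The differences between these medians were not tested. The 3 genes of the stalk and its base, *MRPL10*, *MRPL11* and *MRPL12*, had log2FC values between −0.041 and 0.046.

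Symbol and structure differ for some proteins. *MRPS30* and *MRPS18A* are named for the small subunit but sit in the large one. *MRPS30* had a log2FC of −0.070 (standard error 0.071) and *MRPS18A* of 0.035 (standard error 0.066). *MRPS18A*, *MRPS18B* and *MRPS18C* are paralogs related to 1 bacterial protein, although the ancestry lists above, which follow the names used for the structure, count *MRPS18A* and *MRPS18B* as mitochondria-specific. Their mean levels per length were 65.9, 47.8 and 43.6. The log2FC was 0.049 for *MRPS18B* and −0.071 for *MRPS18C*, with unadjusted p values of 0.459 and 0.410 in edgeR. *MRPL58*, which can release stalled chains as a peptidyl-tRNA hydrolase, had a log2FC of −0.010 (standard error 0.060). *KGD4*, formerly *MRPS36* and now assigned to the 2-oxoglutarate dehydrogenase complex, was not matched by the rule and had a log2FC of 0.13 (standard error 0.10).

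The remaining proteins of the particle carry other symbols. *DAP3*, the GTP-binding protein of the small subunit head, had a mean level of 661 by the median transcript length, above every member on that scale. Its rank by the union of exons is not given here. The log2FC of *DAP3* was 0.024 (standard error 0.040). *PTCD3*, at the mRNA entry of the small subunit, had 47.4, 42.1 and 45.3 CPM (NC) against 41.2, 40.6 and 41.7 CPM (PON1-OE). The groups did not overlap but nearly met. The log2FC was −0.13 (standard error 0.065, unadjusted p = 0.0641 in edgeR). *PTCD3* appears in a heatmap of the paper drawn from these libraries, so it is not independent evidence of a direction. *CHCHD1*, *AURKAIP1* and *GADD45GIP1* had log2FC values of −0.030, −0.044 and −0.034. With these 5 proteins added and subunits assigned by structure, the medians were 0.020 over 52 large and −0.0024 over 30 small subunit genes.

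Other genes of mitochondrial translation were described by lists. Of 29 assembly factors, tested under 30 identifiers, 1 (3.33%) had an unadjusted p under 0.05, against 11.1% of all genes tested. It was *MTG1*, a GTPase that acts on the large subunit. It had 16.6, 19.5 and 17.7 CPM (NC) against 21.1, 22.3 and 19.3 CPM (PON1-OE), and the groups overlapped. Its log2FC was 0.22 (standard error 0.091, unadjusted p = 0.0247 in edgeR), and the p was under 0.05 in 13 of 17 alternatives, with a highest value of 0.115 without NC replicate 1. Of 16 translation factors tested, 2 (12.5%, close to the 11.1% of all genes) were below 0.05 and both were lower in PON1-OE, the elongation factor *GFM1* (log2FC −0.11, unadjusted p = 0.0250 in edgeR) and *MTRFR* (−0.14, unadjusted p = 0.0474), which was named after its value was seen. For *GFM1* the p was under 0.05 in 13 of 17 alternatives and reached 0.0972 without PON1-OE replicate 1. Of 9 genes of mitochondrial transcription and RNA processing, 0 reached an unadjusted p of 0.05 in edgeR, and *MTERF1* had the smallest, 0.127 at a log2FC of −0.20. The 13 mitochondrially encoded genes, whose mRNAs this ribosome reads, had a median log2FC of −0.0069, and 0 of them reached an unadjusted p of 0.05. *MT-ND1* had the smallest p (log2FC −0.070, unadjusted p = 0.0701 in edgeR).

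Among 8 regulators of mitochondrial biogenesis that were tested, 7 had a log2FC below 0 and 1 above 0, with a median log2FC of −0.097, while 6095 of all 11958 genes tested were below 0. Of the 8, 2 (25%) had an unadjusted p under 0.05, against 11.1% of all genes, and the same 2 (25%) had non-overlapping groups, against 16.1% of all genes. The coactivator *PPRC1* (102, 100 and 98.4 CPM against 93.2, 94.2 and 92.6 CPM) and *YY1* (130, 126 and 124 against 122, 119 and 117 CPM) had non-overlapping groups. Their log2FC values were −0.10 (unadjusted p = 0.0345 in edgeR) and −0.091 (unadjusted p = 0.0497). For *PPRC1* the p was under 0.05 in 12 of 17 alternatives and reached 0.119 without NC replicate 1, and for *YY1*, which was named after its value was seen, no alternative was computed. *GABPA* and *GABPB1*, the subunits of GABP, had −0.13 and −0.13, and *NRF1* had 0.013. In these lists 0 genes had an adjusted p under 0.05 in edgeR, and the lowest adjusted p was 0.369, for *MTG1*. The members whose windows held the ETS or YY1 core were not compared with the other members in PON1-OE.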

How the data were processed

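Poly(A) RNA-seq was analyzed for 3 NC and 3 PON1-OE libraries. The authors deposited estimated counts per gene, not normalized, of which 10.5% were not whole numbers. The submitters' processing notes name Bowtie2 2.2.8, HISAT2, StringTie 1.3.1 and DESeq2. The genome build and strand setting are not given in the sources used here. The design assumed estimated counts, which were rounded and tested with edgeR 4.0.16 in R 4.3.3 (filterByExpr, TMM, quasi-likelihood test, 11958 genes, Benjamini-Hochberg). Standard errors were derived from the fitted log2FC and F. Coordinates, lengths and overlaps came from GENCODE v29 on GRCh38 (20126 of 20381 identifiers matched). Alternatives were other scalings and filters, no rounding, DESeq2 1.42.0, limma-voom (limma 3.58.1), the replicate number as a block, splines for GC content and length (5 degrees of freedom), and each library left out. The fit was tested on simulated data. Genes named are members under an unadjusted p of 0.05, the 5 highest and 5 lowest levels, genes with a particular role or other symbol, and the smallest p of each list. Members and lists were chosen with earlier results of these data known. Of the members, 12 share at least 50 exonic bases on the same strand with another gene of the table, 27 overlap an antisense gene and 33 have annotated pseudogenes, so their reads may be divided. No protein sequence was used here. Counts limit precision: the floor of 3 counts was 0.167 to 0.191 CPM.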

Additional observations from a re-analysis of the deposited data

How the results depend on the processing

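No member passed an adjusted p under 0.05 under any of the 18 alternatives (lowest adjusted p 0.156 to 0.390). The count at an unadjusted p under 0.05 was 3 to 6. The median log2FC of the members, 0.012, was −0.014 to 0.034 when single libraries were left out, and turned negative without PON1-OE replicate 2 (34 higher, 43 lower). The large minus small difference of medians, 0.022, was −0.0086 to 0.039, negative without NC replicate 1. Both therefore have no fixed sign, and the cause was not tested. The log2 ratio of sums was 0.016 to 0.035. Among genes named, leaving out single libraries gave log2FC values on both sides of 0 for *MRPS18A* (−0.014 without NC replicate 3 to 0.073), *MRPS18B* (−0.031 without PON1-OE replicate 2 to 0.11), *MRPL58* (−0.034 to 0.034, with 0.000073 without NC replicate 3), *DAP3* (−0.014 without PON1-OE replicate 2 to 0.062), *CHCHD1* (−0.077 to 0.023 without PON1-OE replicate 1) and *AURKAIP1* (−0.10 to 0.034 without PON1-OE replicate 3). No other setting turned a sign.

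Same-numbered libraries did not deviate together over all genes (correlations 0.017, −0.023 and 0.020). Whether they shared a culture or batch was not tested, and a weak shared effect or one limited to few genes could go unseen. With the replicate number as a block, 0 members had an adjusted p under 0.05, 4 an unadjusted one, the median was 0.0099, the difference of subunits 0.021 and the log2 ratio of sums 0.023. With the block and GC content and length removed together, the counts were 0 and 4 and the median 0.0055. With 3 libraries per group, the median half-width of the members' intervals was 0.14 on the log2 scale. For a member with an interval of that width, a smaller change would not reach an unadjusted p of 0.05 in edgeR. The adjusted p asks for more, since *MRPL3*, at a log2FC of 0.16, had an adjusted p of 0.203 in edgeR. Changes above 0.14 could therefore also be missed by the adjusted p, and its limit of detection was not computed.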
